A study of Rattus norvegicus with 6 samples.

Results

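The miRNAs rno-miR-199a-3p, rno-miR-199a-5p and rno-miR-214-3p were followed in small RNA libraries from rat orbitofrontal cortex, a frontal region used in valuing outcomes. They are the 3 of 842 listed names that belong to miR-199a or miR-214 and have reads in every library. They were chosen by name and by their read counts in injured and sham animals, with an earlier analysis of these counts known, so their differences between the groups are given as a description without a test. The 6 adult male Sprague Dawley rats each had 3 surgeries, on days 1, 4 and 7, and the region was dissected on day 42. In 3 rats the surgeries delivered repeated mild controlled cortical impact, a piston strike on the cortical surface, with a velocity of 5 m/s and a 2 mm depth, and in the other 3 they were sham operations without impact. The stock is outbred, tissue was taken from each animal separately, and the labels do not state the distance from the impact to the dissected region.

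In the mouse, miR-199a and miR-214 are cut from Dnm3os, a long RNA transcribed against the direction of Dnm3, the gene of the vesicle-fission protein dynamin 3. The transcript is known from embryonic mesenchyme, where its loss impairs skeletal growth, and its miRNAs are typical of fibroblasts, pericytes and smooth muscle and rise in scarring tissue. In the mouse and human genomes, other hairpins antisense to dynamin genes also give miR-199 strands, so reads of miR-199a need not all come from the same locus as miR-214.

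The mature strands are printed because their seeds (bases 2 to 8, in capitals), which select target mRNAs, differ between all 3 and because the fourth shown here comes from the same place on the opposite strand. Sequences and positions are those of RefSeq on build GRCr8, read 5′ to 3′, whereas the reads were handled with build rn6 per the submitters' processing notes.
miR-199a-5p, chr13:77116255-77116277, plus strand: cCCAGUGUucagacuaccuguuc
miR-199a-3p, chr13:77116294-77116315, plus strand: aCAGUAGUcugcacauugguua
miR-214-3p, chr13:77121713-77121733, plus strand: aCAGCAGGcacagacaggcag
miR-3120, chr13:77121672-77121692, minus strand: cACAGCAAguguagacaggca

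Each of these 4 seeds occurred only once among the 724 mature strands of the RefSeq table, of which 614 distinct names were also in the count table. The strands of miR-199a lie 16 bases apart in their hairpin, and 5397 bases separate miR-199a-3p from miR-214-3p. All the hairpins lie within the span of Dnm3, which runs on the minus strand, so miR-199a and miR-214 are antisense to it and miR-3120 has its direction. miR-3120 is known in the mouse as the mirror of miR-214, made with the Dnm3 transcript in neurons and directed against proteins that uncoat clathrin vesicles. The hairpins of miR-214 and miR-3120 are shown, with the mature strand in capitals, since 106 of their bases are the same DNA read from opposite strands.
Mir214: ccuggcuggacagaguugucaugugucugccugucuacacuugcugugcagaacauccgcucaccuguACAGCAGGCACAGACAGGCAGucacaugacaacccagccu
Mir3120: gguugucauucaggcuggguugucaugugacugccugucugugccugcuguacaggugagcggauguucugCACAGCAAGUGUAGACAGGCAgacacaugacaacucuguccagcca

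miR-3120 is antisense to bases 28 to 48 of the miR-214 hairpin, whereas miR-214-3p occupies bases 69 to 89. Because the arms of a hairpin pair with each other, the strands nonetheless resemble each other: 16 of 20 aligned bases of miR-3120 and miR-214-3p were identical. The sources used here do not give the mismatches allowed in mapping, and reads exchanged between these names were not tested.

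Libraries held 12538288 to 23680840 counted reads, so that 3 counts, the limit that a count of 0 allows, stood for 0.127 to 0.239 CPM (counts scaled to a total of 1000000 reads). Neuronal markers were present in every library, with miR-124-3p at 4782 ± 1086 CPM in the sham group and 4610 ± 771 in the injured group (SD, n = 3 each). Sham replicate 1 and injured replicate 2 stood apart in epithelial miRNAs, mainly of the miR-200 family, whose list summed to 3566 and 1744 CPM there and to 40.5 to 232.3 in the other 4 libraries. Values without these 2 libraries are given below. The labels name 3 biological replicates per group, no batch and no pairing.

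miR-199a-3p was the most abundant of the 3 strands. It is known for repressing the kinase mTOR and the receptor MET in human liver cancer cells and for promoting the division of rodent heart muscle cells. Its counts were 445, 548 and 986 in sham replicates 1, 2 and 3 and 560, 441 and 432 in the injured ones. After TMM scaling, which corrects library totals for differences in composition, these counts were 34.8, 30.5 and 36.7 CPM in the sham group and 26.1, 27.8 and 18.7 in the injured group. Every sham library was above every injured one, with injured replicate 3 the lowest. The means were 34.0 ± 3.1 and 24.2 ± 4.8 CPM (SD, n = 3 each). The log2 fold change of injured over sham from edgeR was -0.49 ± 0.20 (SE), with a 95% interval from -0.97 to -0.01. This interval and those of the other strands below are adjusted neither for the choice of the strands nor for the number of miRNAs.

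miR-199a-5p comes from the other arm of the same hairpin and is known in rat heart muscle cells for holding down Hif1a and Sirt1 until oxygen falls. It had 245, 434 and 548 reads in sham replicates 1, 2 and 3 and 410, 294 and 297 in the injured ones. The scaled levels were 19.2, 24.2 and 20.4 CPM in the sham group and 19.1, 18.5 and 12.9 in the injured group. The groups were separated only by the gap between 19.16 CPM in sham replicate 1 and 19.08 CPM in injured replicate 1, which is far smaller than the spread within either group. The log2 fold change was -0.34 ± 0.22 (SE), with an interval from -0.85 to 0.17 that includes 0.

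miR-214-3p was the least abundant strand and showed the largest difference of the 3. The other arm of its hairpin, miR-214-5p, was not among the 842 listed names, so its arms could not be compared. miR-214-3p is known for repressing Ezh2 in mouse muscle cells. It had 29, 28 and 90 reads in sham replicates 1, 2 and 3 and 15, 12 and 10 in the injured ones. The scaled levels were 2.27, 1.56 and 3.35 CPM in the sham group and 0.698, 0.756 and 0.433 in the injured group. Sham replicate 3 was the highest and injured replicate 3 the lowest, and the lowest sham library lay above the highest injured one. The means were 2.39 ± 0.90 and 0.629 ± 0.172 CPM (SD, n = 3 each), and the log2 fold change was -1.94 ± 0.39 (SE), with an interval from -2.86 to -1.02. This was the most negative of the 534 fitted log2 fold changes, where miR-199a-3p ranked 56 and miR-199a-5p ranked 101 from the most negative.

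**Figure D1:**
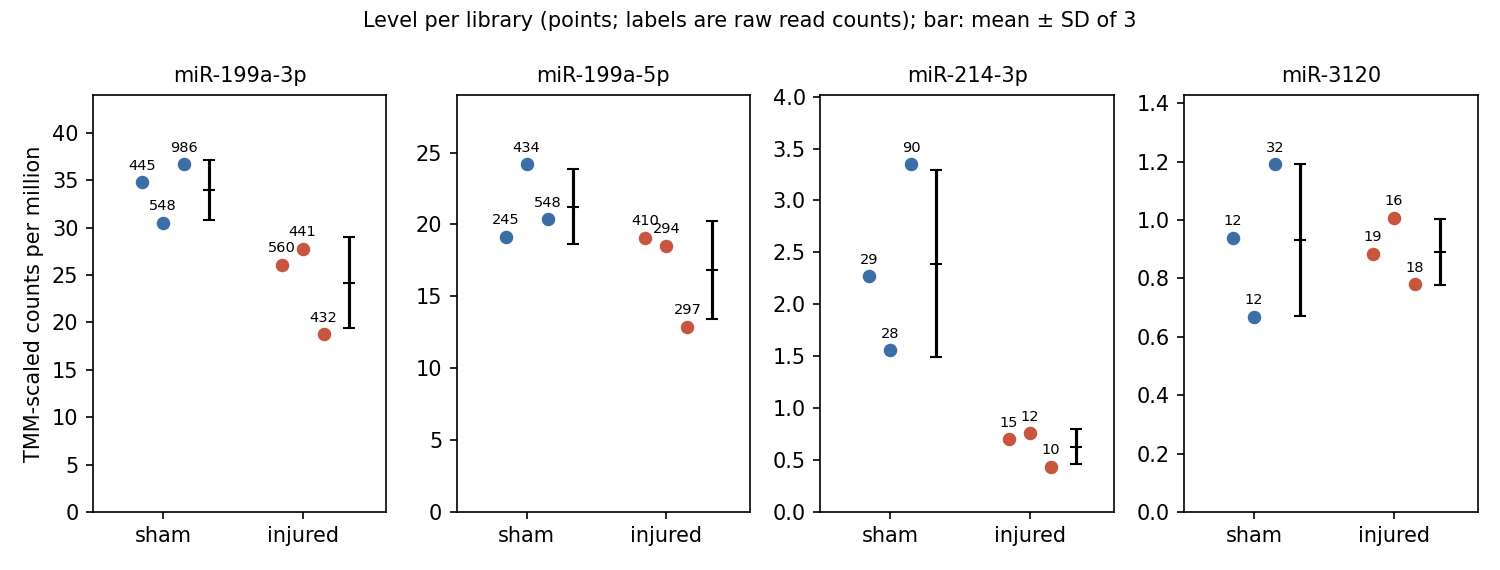
TMM-scaled CPM (y axis, from 0) of the 3 strands and of miR-3120 in each of the 6 libraries, by group, with raw read counts beside the points and the mean ± SD of 3 libraries as a bar. The sham libraries of miR-214-3p lie between 1.56 and 3.35 CPM and the injured ones between 0.433 and 0.756 CPM, while the groups of miR-3120 overlap.

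Few reads lay behind the values of miR-214-3p. The exact Poisson 95% interval ran from 18.6 to 40.5 reads for the 28 reads of sham replicate 2 and from 6.20 to 21.0 reads for the 12 of injured replicate 2. Summed over each group, 147 reads from the sham group stood for 2.64 CPM (interval 2.23 to 3.10) and 37 reads from the injured group for 0.602 CPM (interval 0.424 to 0.830). These intervals cover counting error only and leave out the spread between animals, whose reads are pooled in the group sums. Reads without molecular identifiers are not independent molecules, so even counting error may be larger. In injured animals the spread between libraries, a coefficient of variation of 27.3%, was no larger than the 28.5% that counting alone gives at 12.3 mean reads per library. In sham it was 37.6% against 14.3% from counting.

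For miR-199a, counting gave a small part of the spread. The coefficients of variation of miR-199a-3p were 9.26% in sham and 19.9% in injured animals, against 3.89% and 4.58% from counting. Those of miR-199a-5p were 12.3% and 20.4%, against 4.94% and 5.47%.

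None of the 3 strands was called when edgeR's quasi-likelihood test was adjusted over all 534 tested miRNAs at 0.05. The test called 0% of them, with 12 at an unadjusted p under 0.05. Its smallest adjusted p, 0.813, was that of miR-214-3p. DESeq2 also called 0, and its smallest adjusted p, 0.052, was again that of miR-214-3p. Neither value is an independent test of miR-214-3p, because the contrast entered its choice. The CPM ranges of the groups did not overlap for 3 of the 3 strands, all lower in injured animals, against 7.87% of tested miRNAs in either direction and 4.87% lower in injured animals. Because this contrast entered the choice of the strands, nothing is read from that count. The median log2 fold change of all tested miRNAs was -0.03, with 290 negative and 244 positive values, and with upper-quartile scaling this median moved to 0.12. Relative to the median, miR-214-3p, miR-199a-3p and miR-199a-5p were at -1.91, -0.46 and -0.31 with TMM and at -1.92, -0.48 and -0.32 with upper-quartile factors. With upper-quartile factors, however, the groups overlapped for miR-199a-3p (29.0 CPM in the lowest sham and 29.8 in the highest injured library) and for miR-199a-5p (18.6 and 19.9 CPM), and not for miR-214-3p (1.48 and 0.811 CPM).

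**Figure D2:**
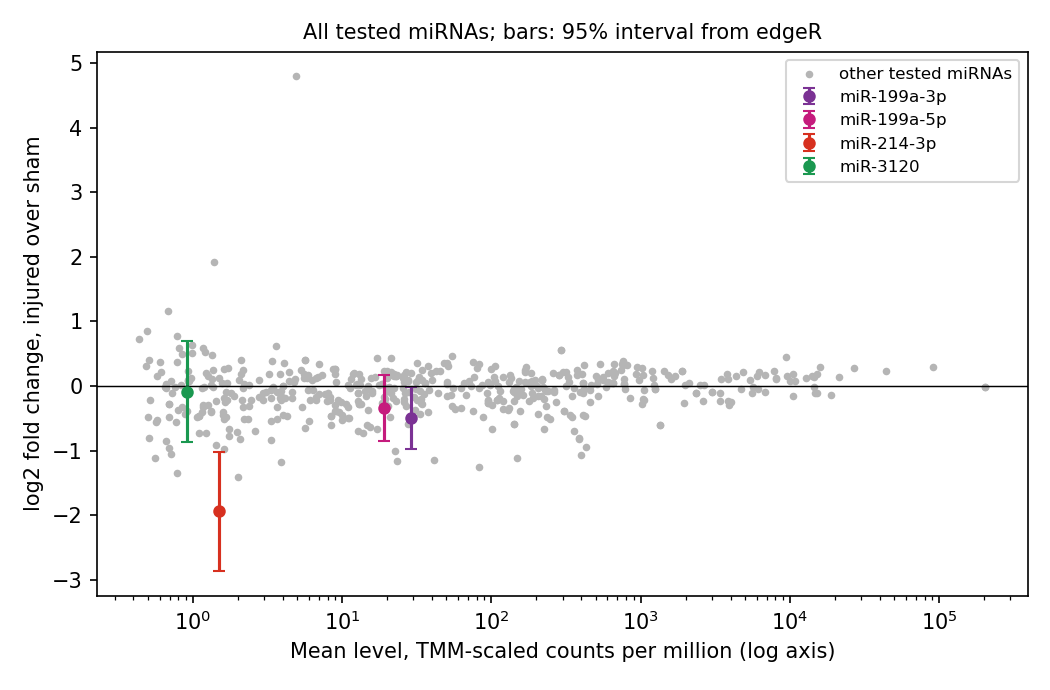
Each of the 534 tested miRNAs by its mean TMM-scaled CPM (x axis, log scale) and its log2 fold change of injured over sham (y axis), with 95% intervals from edgeR for the 3 strands and miR-3120. miR-214-3p is the lowest point, at -1.94, among the less abundant miRNAs, which scatter more than the abundant ones.

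Together the 3 strands took 56.2, 56.3 and 60.4 CPM in sham replicates 1, 2 and 3 and 45.8, 47.0 and 32.0 in the injured ones. The sums were 57.6 ± 2.4 CPM in the sham group and 41.6 ± 8.3 in the injured group (SD, n = 3 each), again without overlap. miR-214-3p made up 4.03%, 2.77% and 5.54% of the summed reads in the sham libraries and 1.52%, 1.61% and 1.35% in the injured libraries, so the difference in the sum was mostly one of miR-199a. In bulk tissue, fewer cells of a type and less of the RNA in each cell cannot be told apart.

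The order of abundance within a library was the same in all 6, with miR-199a-3p above miR-199a-5p and miR-199a-5p above miR-214-3p. Reads are compared here rather than molecules, since adapter ligation favours some miRNA ends over others. The ratio of miR-199a-3p to miR-199a-5p reads was 1.82, 1.26 and 1.80 in sham replicates 1, 2 and 3 and 1.37, 1.5 and 1.45 in the injured ones. Sham libraries thus held both the lowest and the highest arm ratio, and the groups overlapped. Over the 6 libraries the log2 ratio was 0.60 ± 0.21 (SD, n = 6), above 0 in 6 of 6 libraries. The exact two-sided sign-flip permutation p was 0.03125 (0.03125 adjusted over the 3 pairs of strands), the smallest that 6 libraries allow. Since 6 values of the same sign always give this p, it adds nothing to the order. Reads of the arms as near to equal as those of miR-199a were uncommon. Among 153 names whose 5p and 3p arms each averaged at least 10 reads per library, the median imbalance was 17.6-fold. Some of these names share reads, as miR-130a and miR-3590 do, so they are not 153 separate hairpins. By this measure miR-199a was in place 14 from the most even. Since other hairpins may also give miR-199 strands, the ratio need not reflect the arms of 1 hairpin, which was not tested.

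The ratio of miR-199a-5p to miR-214-3p, strands of neighbouring hairpins, was less steady. It was 8.45, 15.5 and 6.09 in sham replicates 1, 2 and 3 and 27.3, 24.5 and 29.7 in the injured ones. All the injured libraries were above all the sham libraries. The log2 ratio averaged 3.20 ± 0.68 for the sham libraries and 4.70 ± 0.13 for the injured ones (SD, n = 3 each), a difference of 1.51 that carries the same contrast as the levels above and was not tested. Over all 6 libraries it was 3.95 ± 0.93 (SD, n = 6; exact two-sided sign-flip permutation p = 0.03125, adjusted over the 3 pairs 0.03125). For miR-199a-3p against miR-214-3p it was 4.55 ± 0.79, with the same exact permutation p of 0.03125 and adjusted p of 0.03125. This last result follows from the order in the other 2 pairs and adds nothing to them. With the same order in all 6 libraries, each p is the smallest that 6 libraries allow and adds nothing to that order. The means over 6 libraries also pool groups whose ratios to miR-214-3p did not overlap. The tests compare reads rather than molecules.

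miR-3120, the opposite-strand neighbour, was also rare. It had 12, 12 and 32 reads in sham replicates 1, 2 and 3 and 19, 16 and 18 in the injured ones. The scaled levels were 0.939, 0.668 and 1.19 CPM in the sham group and 0.884, 1.01 and 0.780 in the injured group. The injured libraries lay inside the range of the sham libraries, and the log2 fold change was -0.09 ± 0.33 (SE), with an interval from -0.86 to 0.69 that includes changes in either direction. Sham libraries therefore held 2.42, 2.33 and 2.81 reads of miR-214-3p for each read of miR-3120, and injured libraries 0.789, 0.750 and 0.556. miR-214-3p was the higher of the pair in 3 of 3 sham and the lower in 3 of 3 injured libraries. However, the Poisson intervals of the 2 counts overlapped in all 3 injured libraries and in sham replicates 1 and 2. They were apart only in sham replicate 3. This ratio carries the same contrast that entered the choice of miR-214-3p, and it was not tested. miR-3120 was added after values were seen.

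**Figure D3:**
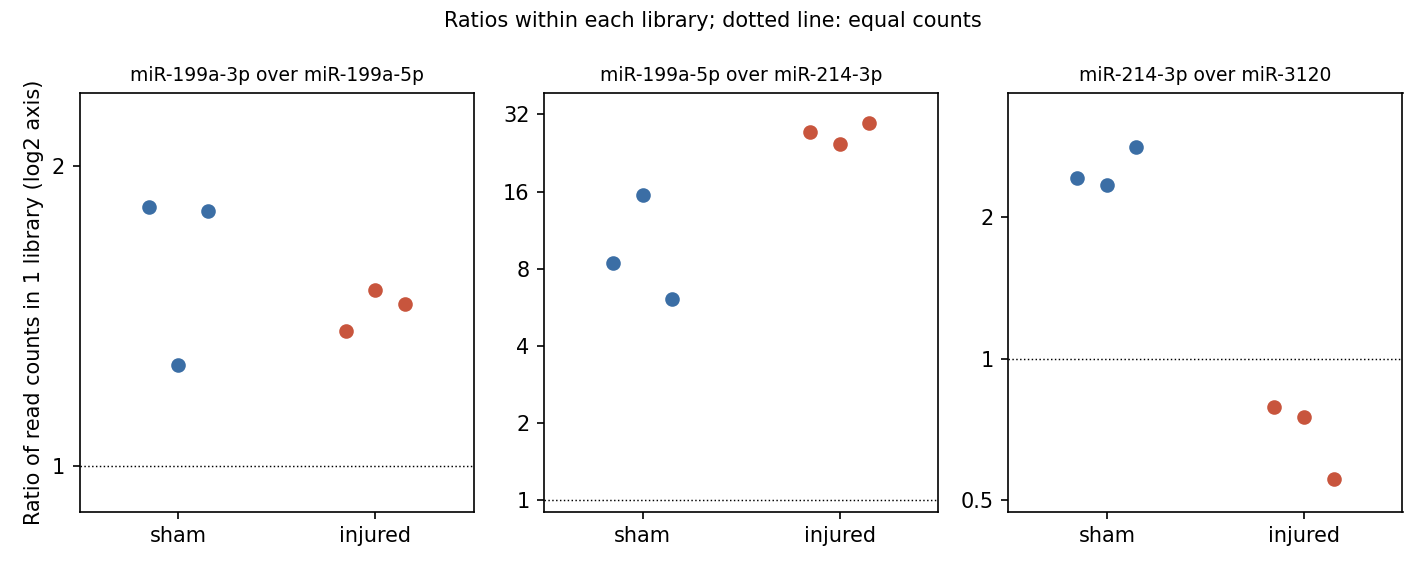
Ratios of read counts within each library (y axis, log2 scale) for miR-199a-3p over miR-199a-5p, miR-199a-5p over miR-214-3p and miR-214-3p over miR-3120, by group, with a dotted line at equal counts. The arm ratio of miR-199a overlaps between the groups at 1.26 to 1.82, the second ratio is 6.09 to 15.5 in sham and 24.5 to 29.7 in injured animals, and the third crosses equality.

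The strands varied together only in part from library to library. The following correlations of log2 CPM are over 6 libraries, share the group difference and are given without a p. miR-199a-3p and miR-214-3p had a Pearson r of 0.93 and a Spearman rho of 1.00, and r was 0.97 without the 2 libraries farthest from the median of miR-199a-3p and 0.85 for deviations from the group means. The arms of miR-199a had an r of 0.80 and a rho of 0.77, with an r of 0.61 within groups but 0.21 without the 2 farthest libraries, on which it partly rested. miR-199a-5p and miR-214-3p had an r of 0.66 and a rho of 0.77, with an r of 0.21 within groups. Without the 2 libraries farthest from the median of miR-199a-5p, their r was 0.82. miR-3120 and miR-214-3p had an r of 0.44 and a rho of 0.54. Their r was -0.31 without the 2 libraries farthest from the median of miR-214-3p. It was 0.96 within groups, where sham replicate 3 held the most reads of both.

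Among the other 531 tested miRNAs, 1 had an r of at least 0.9 with miR-199a-3p, 10 with miR-199a-5p and 0 with miR-214-3p. The 5 most like miR-199a-3p were miR-26b-5p (r = 0.91), miR-376c-3p (0.87), miR-98-5p (0.87), miR-216b-5p (0.85) and miR-3102 (0.84). The 5 most like miR-214-3p included 3 of these, miR-26b-5p (r = 0.89), miR-98-5p (0.88) and miR-3102 (0.87), beside miR-31a-3p (0.87) and miR-15b-5p (0.84). miR-26b-5p led both lists at 390.6 CPM in the sham group and 284.8 in the injured group, with a log2 fold change of -0.46 ± 0.20 (SE). The 5 most like miR-199a-5p were miR-466b-3p (r = 0.96), miR-542-3p (0.96), miR-135b-5p (0.96), miR-101a-3p (0.95) and miR-144-5p (0.94), of which none was shared with the other strands. Their r within groups was 0.91 to 0.98, but their Spearman rho was only 0.54 to 0.83. Within groups, r was 0.57 to 0.81 for the 5 of miR-199a-3p and 0.27 to 0.86 for those of miR-214-3p. All were picked as the highest of 531 correlations over 6 libraries, and chance was not tested.

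Other miRNAs of mesenchymal and mural cells did not show the same direction. Of 9 tested in that list, the log2 fold change was negative for 3 and positive for 6 (median 0.04), while 0 were called and 0 had groups without overlap, against 7.87% of all tested miRNAs. miR-143-3p, the leading smooth-muscle miRNA, had 24288 CPM in the sham group and 29395 in the injured group, with a log2 fold change of 0.28 ± 0.25 (SE). Its cluster partner miR-145-5p had -0.06 ± 0.27 and miR-140-3p, typical of cartilage and fibroblasts, 0.01 ± 0.12. miR-152-3p, from an intron of the coat protein gene Copz2 and enriched in fibroblasts, was the most negative at 103.0 CPM in the sham group and 73.6 in the injured group, with a log2 fold change of -0.48 ± 0.25. The summed list ran from 21621 to 32445 CPM in sham and from 25121 to 42492 CPM in injured animals, most of it miR-143-3p. The endothelial miR-126a strands had -0.01 ± 0.16 (3p) and -0.11 ± 0.16 (5p), with sums of 5570 to 6649 and 5048 to 6986 CPM, with 0 of 2 called. The name mesenchymal thus rests on what is known of the transcript, and the other mesenchymal names shared no common direction in these libraries.

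Among miRNAs linked to matrix and scar, which include the collagen-repressing miR-29 family and miR-21-5p, 3 of 4 were negative and 0 were called, with a median of -0.16. miR-29a-3p had a log2 fold change of 0.09 ± 0.13 (SE), miR-29b-3p -0.39 ± 0.26, miR-29c-3p -0.22 ± 0.19 and miR-21-5p -0.09 ± 0.18. Their summed level was 11415 to 14417 CPM in sham and 11149 to 14230 CPM in injured animals, so the groups overlapped almost entirely.

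Blood-cell miRNAs also had negative log2 fold changes. This was so for 3 of 3 tested erythrocyte miRNAs, with a median of -0.82, 0 called and 1 (miR-451-5p) without overlap between the groups, and their summed level was 51.8, 92.7 and 53.9 CPM in sham replicates 1, 2 and 3 and 23.5, 43.1 and 27.6 in the injured ones. These sums did not overlap between the groups either. Of 7 myeloid and immune miRNAs, 6 were tested and 6 were negative, with a median of -0.32 and 0 called. The groups did not overlap for 2 of them (miR-142-5p and miR-155-5p). The sums of 435.7 to 778.6 CPM in sham and 455.2 to 511.0 CPM in injured animals overlapped. Most of these sums was miR-150-5p, with means of 496.0 CPM in the sham group and 418.0 in the injured group. Among all 534 tested miRNAs, 290 were negative. Groups without overlap made up 7.87% in either direction and 4.87% lower in injured animals. With so few names in each blood-cell list, nothing is read from these counts. The myeloid miR-223-3p had 2.15 CPM in the sham group and 1.10 in the injured group, with a log2 fold change of -0.98 ± 0.43 (SE). The part of blood in the values of miR-199a and miR-214 was not tested. All 7 epithelial miRNAs were negative, with a median of -1.07 and 0 called, and their sums of 82.8 to 3566 CPM in sham and 40.5 to 1744 CPM in injured animals overlapped. Without the library highest in them in each group, miR-199a-3p, miR-199a-5p and miR-214-3p had log2 fold changes of -0.56, -0.46 and -2.09.

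**Figure D4:**
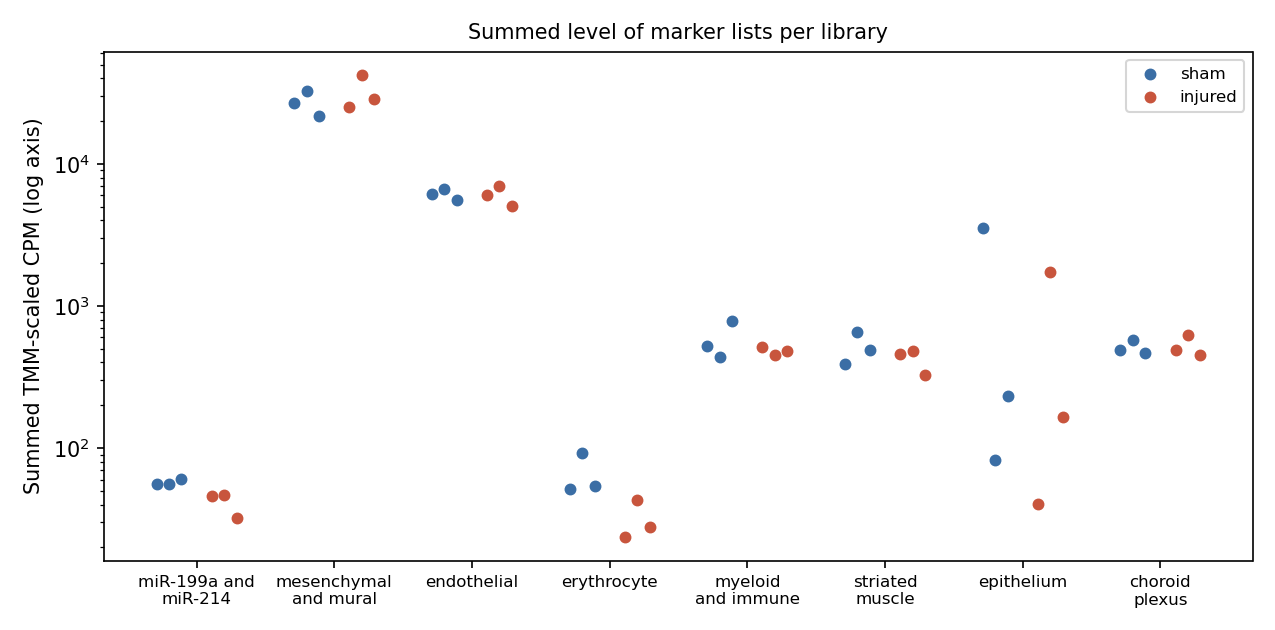
Summed TMM-scaled CPM (y axis, log scale) of the 3 strands and of 7 marker lists in each library, by group. The sums of the 3 strands and of the erythrocyte list are separated between the groups, at 23.5 to 43.1 CPM in injured and 51.8 to 92.7 CPM in sham animals for the latter, and the other lists overlap.

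The size of the difference for miR-214-3p depended on single libraries and on the scale, and its sign did not in the settings run. miR-214-3p was chosen with this contrast known and its groups did not overlap, so the kept sign is no separate support. Its log2 fold change lay between -2.12 and -1.60 when 1 library at a time was left out, with the weakest value without sham replicate 3, which held 90 of the 147 sham reads. Without injured replicate 3, the lowest library for all 3 strands, it was -1.68, while miR-199a-3p moved from -0.49 to -0.30 and miR-199a-5p from -0.34 to -0.14. miR-199a-5p was at -0.19 without sham replicate 2. On the log2(TPM + 1) scale, which compresses low values, miR-214-3p was at -1.08.

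**Figure D5:**
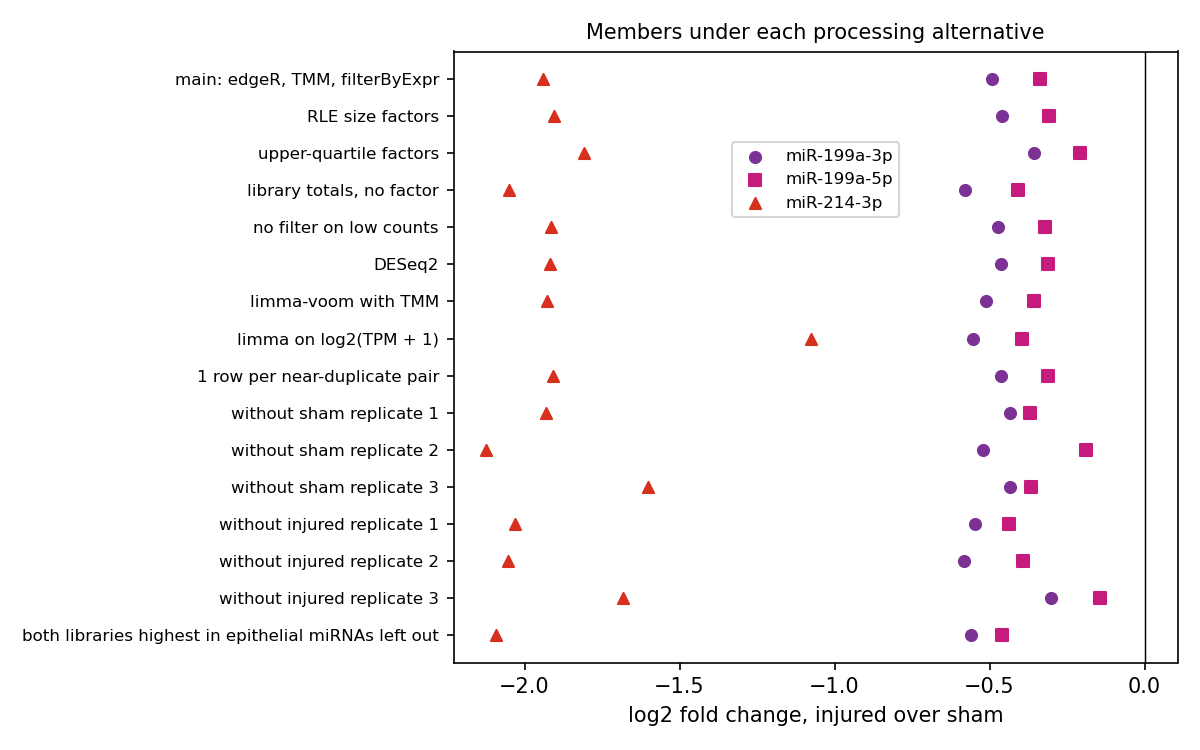
Log2 fold change of injured over sham (x axis) for the 3 strands under the main processing and 15 alternatives (y axis). All points are below 0, miR-214-3p spans -2.12 to -1.08, and miR-199a-3p and miR-199a-5p span -0.58 to -0.30 and -0.46 to -0.14.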

How the data were processed

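Small RNA, prepared by adapter ligation and gel size selection per the labels, from 3 sham and 3 injured rats was analysed from the deposited table. Per the file headers, it holds raw read counts and TPM values for 842 names, and Bowtie and rn6 are named, without versions, in the submitters' processing notes. The sources used here do not give the counter, the miRNA annotation or the read filters. The deposited TPM equalled counts divided by the library total and scaled to 1000000, to within 4.66e-10, with no length term. The members and lists were chosen with earlier results of these data known.

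Counts of all names were fitted with edgeR 4.0.16 in R 4.3.3 (TMM, filterByExpr with minimum count 10 and minimum total 15, quasi-likelihood F-test, Benjamini-Hochberg adjustment), which kept 534 names with 99.996% of reads. The standard error is the absolute log2 fold change over the square root of F. For correlations the prior count of log2 CPM was 2. Mean log2 ratios had 0.5 reads added to each count, and ratios printed per library had none. DESeq2 1.42.0, limma 3.58.1 and other scalings were alternatives. Procedures were tested on simulated data. Named miRNAs were the members, seed sharers, the opposite-strand miR-3120, the 5 most correlated per member and the marker lists. No seed sharer was found among the 724 RefSeq mature strands, which do not cover all 842 names. miR-3120, and the alternative that leaves out the libraries highest in epithelial miRNAs, were added after values were seen.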

Additional observations from a re-analysis of the deposited data

How the results depend on the processing

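The negative log2 fold changes of miR-199a-3p, miR-199a-5p and miR-214-3p kept their sign in all 15 alternatives. These covered scaling, filter, tool, near-duplicate names and libraries left out. Because this contrast entered the choice of the strands and their groups did not overlap with TMM, leaving out libraries could hardly reverse a sign. The kept sign is therefore no separate support. Shifts were smaller than the spread between replicates except for miR-214-3p on log2(TPM + 1), at -1.08, where the pseudocount exceeds several of its values. The number of miRNAs called was 0 in 14 of the 15, whose smallest adjusted p-values ranged from 0.052 to 0.999. It was 1 (miR-293-5p, not a member) without both libraries highest in epithelial miRNAs. With 1 library left out in turn, the mean log2 ratio was 0.55 to 0.66 for miR-199a-3p over miR-199a-5p and 3.77 to 4.22 for miR-199a-5p over miR-214-3p, where 5 libraries cannot reach p = 0.05 in the exact permutation test. The share of miRNAs without overlap was 7.49% to 8.05% under other scalings. Depth limits miR-214-3p and miR-3120, which had 10 to 90 reads per library.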

Other observations

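Of 6 tested striated muscle miRNAs, 5 were negative with a median log2 fold change of -0.46 and 0 called, and the sums of 389.7 to 652.9 CPM in the sham group and 325.1 to 482.8 in the injured group overlapped. miR-206-3p, a skeletal muscle miRNA, had 11.8 CPM in the sham group and 8.17 in the injured group, with a log2 fold change of -0.53 ± 0.24 (SE). The heart muscle miR-208a-3p had 0 to 4 reads per library and was not tested. The choroid plexus miRNAs miR-204-5p and miR-211-5p had 0.03 ± 0.18 and 0.41 ± 0.30, with 0 of 2 called. Of 4 neuronal miRNAs, 3 were negative with a median of -0.02, and the glial miR-219a-5p and miR-338-3p had -0.01 ± 0.31 and -0.22 ± 0.27, with 0 called in either list.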
